A study of Homo sapiens with 7 samples.

Results

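The genes of the integrated stress response that are described here are ATF4, ATF5, DDIT3, TRIB3, DDIT4, SESN2, CHAC1, ASNS, PSAT1 and PHGDH, 10 genes of the 58174 in the deposited table. They were chosen by symbol, and all 10 were found and had enough reads to be tested among 14839 genes. The data are RNA-seq of Huh-7, a human hepatocellular carcinoma line, harvested 72 h after transfection. The cells had received control siRNAs (siC, 3 libraries) or siRNAs directed against IGF2BP1, an RNA-binding protein that stabilizes many of its target mRNAs (siIGF2BP1, 4 libraries). All libraries come from this 1 cell line in the same culture medium and carry no other allele or agent, and depletion is by siRNA pool, so the cells keep part of the transcript. The labels do not say whether libraries of a group came from separate cultures, so p-values measure only the spread between these samples, which may be technical.

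In the integrated stress response, kinases that sense amino acid shortage, unfolded protein in the endoplasmic reticulum (ER), double-stranded RNA or lack of heme phosphorylate the translation factor eIF2alpha. General translation then falls, while the mRNA of the transcription factor ATF4, which carries upstream open reading frames, is translated more. ATF4 protein pairs with other bZIP factors and induces genes of amino acid synthesis and import, of redox control and of mTORC1 inhibition, among them those listed above. Since ATF4 is controlled in large part by translation, its RNA level is not a measure of its protein. In liver cells the same genes respond to diet, ER load and mitochondrial damage.

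ATF4 with a C/EBP partner binds a composite element, here searched as TGATGNAA on both strands of the promoter windows of RefSeq (GRCh38.p14), which span 250 bases before to 50 bases after each start site. Of 35116 windows of 300 bases, 1270 (3.62%) held it. All 10 genes had at least 1 window, and those of CHAC1 and ASNS held 1 match each. The matches are shown because they are the only copies of the element in the windows of these genes. They are printed 5′ to 3′ with 11 bases on each side and the element in capitals.
CHAC1 (chr15:40953251-40953280, minus strand, opposite to the gene): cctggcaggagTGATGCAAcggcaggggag
ASNS (chr7:97872458-97872487, minus strand, as the gene): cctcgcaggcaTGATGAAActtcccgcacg
The CHAC1 element lies at -209 to -202 from the start site and the ASNS element at -68 to -61, in 1 of the 2 windows of ASNS. These start sites are those of RefSeq, and both lie inside the wider GENCODE loci of these genes, so both elements fall within the annotated genes. A match is a match of letters, and the windows of the other 8 genes lack only these letters.

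The siRNA pool lowered IGF2BP1 to 19.2% of its siC level (log2 change -2.37, limma adjusted p = 1.16e-05). Libraries held from 12826550 to 33212205 reads on genes. The siC library replicate 3 stood apart from the other siC libraries. Across all tested genes its log2 distance from the mean of siC replicates 1 and 2 had an SD of 0.70, against 0.44 for siC replicate 2 minus 1. The distance moved with base composition, with a median of 0.18 for 6381 genes whose longest transcript holds under 45% GC, -0.11 for 4853 genes at 45 to 55% and -0.34 for 3477 genes at 55% or more. The log2 change of each of the 10 genes is therefore given with and without this library. Overlap of groups, calls by read counts and the order of levels are given with all libraries only. Hepatocyte markers were present, with all 10 at or above 1 FPKM (fragments scaled to gene length and library size, a level per gene length) in at least 1 library and a summed level of 5868 to 7306 FPKM in siC and 6622 to 6793 FPKM in siIGF2BP1. Markers of other cells differed. PTPRC, CD3E, KDR, CDH5 and COL1A1 were at or near 0. LUM was at 5.44 to 8.09 FPKM, PECAM1 at 2.58 to 3.29, COL1A2 at 0.71 to 1.46 and PDGFRB at 0.51 to 0.84 FPKM. Of 3 leukocyte markers CD14 alone was above 1 FPKM, and the sum was 0.462 to 1.26 FPKM in siC and 2.07 to 2.69 FPKM in siIGF2BP1. The summed level of 3 endothelial markers was 2.58 to 3.05 and 2.86 to 3.30 FPKM, and that of 4 fibroblast or stellate markers 8.93 to 9.38 and 7.46 to 8.30 FPKM.

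Of the 10 stress response genes, DDIT4 alone passed the threshold of limma adjusted p at most 0.01, as a higher gene, and none passed as a lower gene. Over all tested genes 3.93% passed, 1.65% higher and 2.28% lower. At an unadjusted p under 0.05 in limma, DDIT4 and CHAC1 passed, where 25.9% of all tested genes did. Without siC replicate 3 this held for 5 of the 10 and for 5684 of the 14839 tested genes. Voom, the variant of limma for read counts, called 1 of the 10 higher and 0 lower, and 2.38% and 3.3% of all tested genes. The mean was higher in siIGF2BP1 for 7 and lower for 3 of the 10, with a median log2 change of 0.083 against -0.017 over all tested genes. Of all 14839 tested genes the mean was higher for 6991 and lower for 7848. Without siC replicate 3 the mean was higher for 4 and lower for 6 of the 10, and for 6754 and 8085 of all 14839 tested genes. With all libraries, groups without overlap were seen for 4 of the 10, DDIT3, TRIB3 and DDIT4 (higher) and ASNS (lower), against 27% of all tested genes. Without siC replicate 3, DDIT4 (higher) and ATF5 (lower) passed, where 10.3% of all tested genes did (3.59% higher and 6.67% lower), and the median of the 10 became -0.057 against -0.031 over all tested genes.

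**Figure D1:**
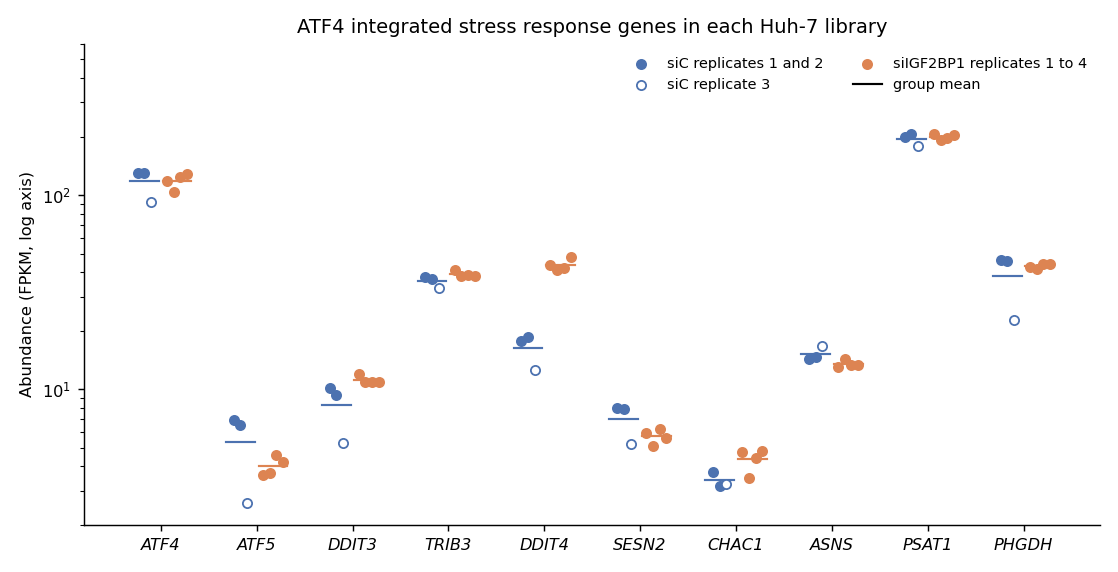
Abundance in FPKM (log axis) of the 10 stress response genes in each Huh-7 library, with a bar at the group mean; the open circle is siC replicate 3. DDIT4 is the gene whose siIGF2BP1 libraries (41.0 to 48.2 FPKM) lie farthest from its siC libraries (12.5 to 18.7 FPKM). The open circle is below the other siC libraries for every gene but CHAC1 and ASNS, DDIT4 included.

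By level per gene length in siC, PSAT1 stood highest (194 FPKM), followed by ATF4 (117 FPKM), PHGDH (38.2 FPKM), TRIB3 (35.9 FPKM), DDIT4 (16.3 FPKM), ASNS (15.3 FPKM), DDIT3 (8.27 FPKM), SESN2 (7.03 FPKM), ATF5 (5.38 FPKM) and CHAC1 (3.39 FPKM). PSAT1 and ATF4 lay among the most abundant tested genes (percentiles 98.8 and 97.8), whereas ATF5 and CHAC1 lay below the median level of 5.65 FPKM. The siC ranges of PHGDH and TRIB3 overlapped, as did those of DDIT4 and ASNS and of each neighbour from DDIT3 down to CHAC1, so these pairs are not ordered beyond their spread. In siIGF2BP1 the order differed at DDIT4, which moved from rank 5 to rank 3 (43.7 FPKM) with a range that overlapped that of PHGDH (43.0 FPKM), and at ATF5 and CHAC1, which changed places with overlapping ranges.

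Among the regulators of signalling, DDIT4 was 2.68 times as high in siIGF2BP1 as in siC. DDIT4 (also known as REDD1, ENSG00000168209, chromosome 10, 72273919 to 72276036, plus strand, GRCh38) encodes an inhibitor of mTORC1 that acts through the TSC complex. It was at 17.7, 18.7 and 12.5 FPKM in siC replicates 1 to 3 and at 43.5, 41.0, 42.0 and 48.2 FPKM in siIGF2BP1 replicates 1 to 4. Each siIGF2BP1 library was above each siC library, and siC replicate 3 was the lowest of all. The mean of siC was 16.3 ± 3.32 FPKM (SD, n = 3) and that of siIGF2BP1 43.7 ± 3.19 FPKM (SD, n = 4), which gave a log2 change of 1.44 (SE 0.144, 95% interval 1.10 to 1.78, limma adjusted p = 0.00184). Left without siC replicate 3, the fit gave 1.26 (1.08 to 1.43, adjusted p = 0.000407), or 240% of the mean of the other siC libraries. From 354 to 1622 reads lay on DDIT4 in a library. The limma adjusted p was 0.0115, 0.0103 and 0.0105 when siIGF2BP1 replicate 1, 3 or 4 was left out, just above the threshold, and ran from 3.36e-05 to 0.0985 over 19 alternatives, of which 15 passed. In bulk RNA a change per cell and a change in the number of cells that express a gene cannot be told apart.

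Set against ATF4 within each library, DDIT4 was also higher in siIGF2BP1. The level of DDIT4 was 0.136, 0.143 and 0.136 times that of ATF4 in siC replicates 1 to 3, so that siC replicate 3 was near the other siC libraries on this ratio. It was 0.368, 0.398, 0.338 and 0.376 times that of ATF4 in siIGF2BP1 replicates 1 to 4. The ratio of TRIB3 to ATF4 overlapped between the groups, at 0.284 to 0.360 in siC and 0.297 to 0.370 in siIGF2BP1.

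TRIB3 (ENSG00000101255, chromosome 20, 362835 to 397559, plus strand) encodes a pseudokinase that binds AKT and ATF4 and is itself a target of ATF4 and DDIT3. It was at 37.7, 37.0 and 33.1 FPKM in siC replicates 1 to 3 and at 41.3, 38.2, 38.8 and 38.1 FPKM in siIGF2BP1 replicates 1 to 4. The groups did not overlap, and siIGF2BP1 replicate 4 (38.1 FPKM) was close to siC replicate 1 (37.7 FPKM). TRIB3 had a log2 change of 0.12 (SE 0.068, interval -0.038 to 0.28, limma adjusted p = 0.314) and 0.065 (-0.045 to 0.17, adjusted p = 0.346) without siC replicate 3.

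SESN2 and CHAC1 had mean differences of opposite direction, neither past the threshold. SESN2 (ENSG00000130766, chromosome 1, 28259518 to 28282491, plus strand) encodes a leucine sensor that restrains mTORC1 through GATOR2. It was at 7.99, 7.88 and 5.22 FPKM in siC replicates 1 to 3 and at 5.96, 5.10, 6.21 and 5.58 FPKM in siIGF2BP1 replicates 1 to 4. All siIGF2BP1 libraries were below siC replicates 1 and 2, and siC replicate 3 lay within the siIGF2BP1 range. The fitted log2 change was -0.27 (SE 0.161, interval -0.65 to 0.11, limma adjusted p = 0.346). It was -0.47 (-0.68 to -0.26) without siC replicate 3, with a limma adjusted p of 0.012 that missed the threshold and ran from 0.00434 to 0.614 over 19 alternatives.

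CHAC1 (ENSG00000128965, chromosome 15, 40952962 to 40956512, plus strand) encodes an enzyme that degrades glutathione, and its promoter window holds the element printed above. It was at 3.76, 3.16 and 3.25 FPKM in siC replicates 1 to 3 and at 4.77, 3.50, 4.4 and 4.83 FPKM in siIGF2BP1 replicates 1 to 4. The groups overlapped through siIGF2BP1 replicate 2, which was below siC replicate 1. CHAC1 had the lowest level of the 10 in siC, with from 92 to 208 reads per library. CHAC1 had a log2 change of 0.35 (SE 0.132, interval 0.041 to 0.66, limma adjusted p = 0.146, unadjusted p = 0.0316 in limma) and 0.32 (-0.041 to 0.69, adjusted p = 0.171) without siC replicate 3.

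**Figure D2:**
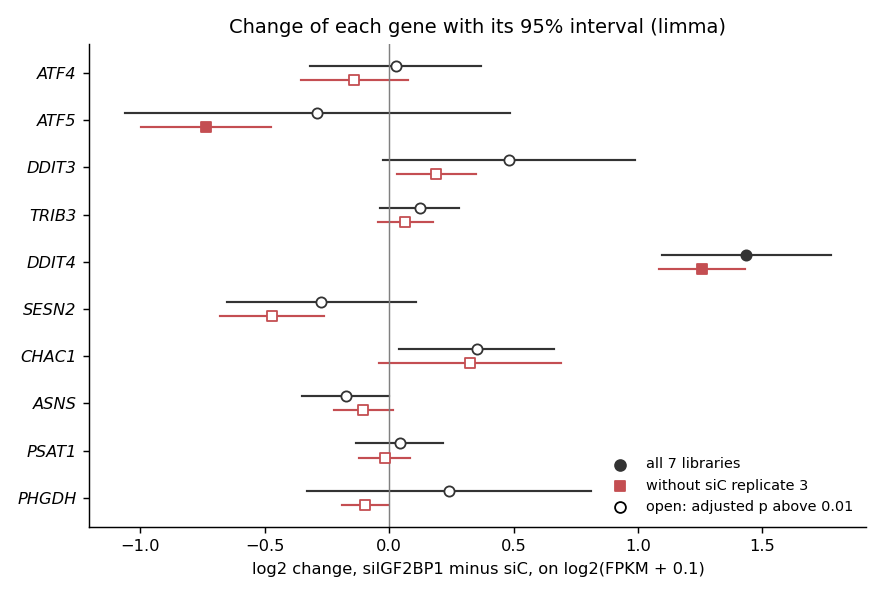
Log2 change (siIGF2BP1 minus siC) of the 10 genes with its 95% interval from limma, from all 7 libraries (circles) and without siC replicate 3 (squares), with filled symbols at an adjusted p of at most 0.01. DDIT4 is filled in both, at 1.44 and 1.26, ATF5 only without siC replicate 3, at -0.74, and the intervals of ATF4, TRIB3, ASNS and PSAT1 span 0 in both.

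The transcription factors ATF4, ATF5 and DDIT3 did not pass the threshold with all libraries. ATF4 (ENSG00000128272, chromosome 22, 39519695 to 39522683, plus strand) was at 130.4, 130.2 and 92.0 FPKM in siC replicates 1 to 3. The siIGF2BP1 replicates 1 to 4 had 118, 103, 124 and 128 FPKM, each between siC replicate 3 and the other siC libraries. Mean levels were 117 ± 22.1 FPKM (SD, n = 3) for siC and 119 ± 11.1 FPKM (SD, n = 4) for siIGF2BP1, a ratio of 101%. This gave a log2 change of 0.026 (SE 0.146, 95% interval -0.32 to 0.37, limma adjusted p = 0.94), which leaves moderate changes in either direction within the error. The sign turned without siC replicate 3, to -0.14 (-0.36 to 0.074, adjusted p = 0.3). At least 3182 reads lay on ATF4 in each library, so counting error was small beside this spread.

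ATF5 encodes a bZIP factor of the same family whose mRNA is also translated through upstream open reading frames under stress. It was at 6.96, 6.56 and 2.61 FPKM in siC replicates 1 to 3 and at 3.62, 3.72, 4.57 and 4.22 FPKM in siIGF2BP1 replicates 1 to 4. The siIGF2BP1 libraries lay below siC replicates 1 and 2 and above siC replicate 3, so the groups overlapped. Its log2 change was -0.29 (SE 0.328, interval -1.06 to 0.48, limma adjusted p = 0.649), and the interval of ATF5 was the widest of the 10. When siC replicate 3 was left out, it was -0.74 (-1.0 to -0.48, limma adjusted p = 0.00564), with siIGF2BP1 at 59.7% of the mean of the other siC libraries, and the adjusted p ran from 0.00564 to 0.951 over 18 alternatives. Whether ATF5 was lower thus rested on siC replicate 3. ATF5 (ENSG00000169136, chromosome 19, 49928702 to 49933935, plus strand) overlaps IL4I1 and NUP62 on the other strand, so its value is uncertain to the extent that counting ignored strand. The library kit kept strand, but whether reads were assigned by it is not stated.

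DDIT3 (CHOP) encodes a bZIP factor that ATF4 induces and that acts with it on later target genes. It was at 10.2, 9.37 and 5.28 FPKM in siC replicates 1 to 3 and at 12, 10.9, 10.8 and 10.8 FPKM in siIGF2BP1 replicates 1 to 4. Each siIGF2BP1 library was above each siC library, and siC replicate 3 was far below the rest. The log2 change of DDIT3 was 0.48 (SE 0.215, interval -0.025 to 0.99, limma adjusted p = 0.212), and 0.19 (0.032 to 0.35, adjusted p = 0.0824) without siC replicate 3. DDIT3 (ENSG00000175197, chromosome 12, 57516588 to 57521737, minus strand) overlaps MARS1 and MBD6 on the other strand and a further gene model on its own, and from 92 to 380 reads lay on it in a library.

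None of the genes of amino acid synthesis passed the threshold, and their levels in siIGF2BP1 were 88.4% (ASNS), 103% (PSAT1) and 112% (PHGDH) of siC. ASNS (ENSG00000070669, chromosome 7, 97851677 to 97872542, minus strand) encodes asparagine synthetase, and its promoter window holds the second element printed above. It was at 14.4, 14.6 and 16.8 FPKM in siC replicates 1 to 3 and at 13.0, 14.2, 13.3 and 13.4 FPKM in siIGF2BP1 replicates 1 to 4. Each siIGF2BP1 library was below each siC library, and siC replicate 3 was here the highest. The log2 change of ASNS was -0.17 (SE 0.074, interval -0.35 to 0.0012, limma adjusted p = 0.196) and -0.10 (-0.22 to 0.016, adjusted p = 0.183) without siC replicate 3. ASNS overlaps a long non-coding gene model on its own strand, so its reads may not all be of ASNS.

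PSAT1 and PHGDH encode enzymes of serine synthesis from a glycolytic intermediate, with PHGDH at the entry. PSAT1 (ENSG00000135069, chromosome 9, 78297125 to 78330093, plus strand) was at 199, 205 and 178 FPKM in siC replicates 1 to 3 and at 206, 192, 198 and 204 FPKM in siIGF2BP1 replicates 1 to 4. The groups overlapped, and the log2 change of 0.043 (SE 0.074, interval -0.13 to 0.22, limma adjusted p = 0.774) became -0.018 (-0.12 to 0.085, adjusted p = 0.796) without siC replicate 3. With all libraries this interval was the narrowest among the genes whose groups overlapped.

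PHGDH (ENSG00000092621, chromosome 1, 119648411 to 119744218, plus strand) was at 46.3, 45.7 and 22.7 FPKM in siC replicates 1 to 3 and at 42.4, 41.7, 44 and 44 FPKM in siIGF2BP1 replicates 1 to 4. The 4 siIGF2BP1 libraries and the other siC libraries lay within 41.7 to 46.3 FPKM, and siC replicate 3 was apart. For PHGDH the log2 change was 0.24 (SE 0.242, interval -0.33 to 0.81, limma adjusted p = 0.601), and -0.097 (-0.19 to -0.0033, adjusted p = 0.121) without siC replicate 3.

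Most of the 10 genes had a low level in siC replicate 3. In 8 of the 10 this library was the lowest of the siC libraries, with ASNS and CHAC1 as exceptions, against 47.9% of all tested genes. The log2 distance of siC replicate 3 from the mean of siC replicates 1 and 2 had a median of -0.52 over the 10, -0.033 over all tested genes and -0.34 over tested genes at 55% GC or more. It was -1.34 for ATF5, -1.01 for PHGDH and -0.87 for DDIT3. Of all tested genes, 4.41% were farther than ATF5 in either direction, 8.51% farther than PHGDH and 11.8% farther than DDIT3. The log2 difference of siC replicate 2 from replicate 1 ran from -0.25 for CHAC1 to 0.073 for DDIT4 over the 10. In CHAC1 it was the larger of these differences, since siC replicate 3 was at -0.083.

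The transcripts of ATF4, ATF5, TRIB3, DDIT4, SESN2 and CHAC1 hold from 56.7 to 61.5% GC, PHGDH 52.3%, DDIT3 49.7%, and ASNS and PSAT1 42.7 and 42.5%. After each library's trend with GC content was removed, the distance of siC replicate 3 was -1.04 for ATF5, -0.86 for PHGDH and -0.78 for DDIT3. It was then between -0.29 and 0.24 for the other 7. The part of base composition, of RNA quality or of the state of the cells in these distances was not tested.

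**Figure D3:**
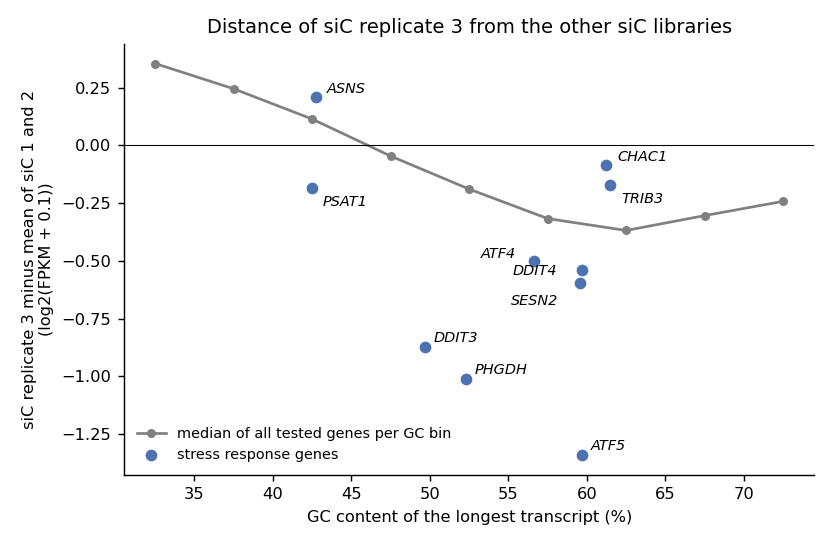
Log2 distance of siC replicate 3 from the mean of siC replicates 1 and 2 against the GC content of the longest transcript (percent), for the 10 genes (blue) and as the median of all tested genes per GC bin (grey). The grey medians run from 0.35 at 30 to 35% GC to -0.37 at 60 to 65% GC, and ATF5 (-1.34), PHGDH (-1.01) and DDIT3 (-0.87) lie far below them.

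The mean profile of the 10 genes, each centred on its own mean log2 level, was 0.076, 0.039 and -0.45 in siC replicates 1 to 3 and 0.11, -0.0096, 0.11 and 0.13 in siIGF2BP1 replicates 1 to 4. The protein-coding genes outside the 10 with the most similar profile over the 7 libraries were RANGAP1, SSR2, KIF22, S100P and ATG4B, with Pearson's r from 0.9970 to 0.9995 across the libraries. In all 5 the log2 distance of siC replicate 3 was negative, from -1.15 in S100P to -0.31 in SSR2, and none of them passed the threshold. The genes were picked for likeness to a profile whose largest deviation is in siC replicate 3, so these distances follow from the choice.

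Upstream of ATF4, none of the 10 eIF2alpha kinases and phosphatase subunits passed the threshold in limma or in voom. At an unadjusted p under 0.05 in limma there were 3, near the 25.9% of all tested genes. The kinase EIF2AK3 (PERK), which senses unfolded protein in the ER, had the largest change, at 4.77, 5.33 and 7.87 FPKM in siC and 7.29, 9.43, 7.55 and 7.39 FPKM in siIGF2BP1. Its siIGF2BP1 libraries were above siC replicates 1 and 2 and overlapped siC replicate 3 (log2 change 0.42, limma adjusted p = 0.199, and 0.63 with adjusted p = 0.013 without siC replicate 3). The log2 changes of EIF2AK1 (the heme-regulated kinase), EIF2AK2 (PKR, the kinase of double-stranded RNA) and EIF2AK4 (GCN2, the sensor of amino acid shortage) were -0.15, -0.17 and -0.22. That of EIF2AK2 was 0.020 without siC replicate 3. PPP1R15A (GADD34), the inducible phosphatase subunit and a target of ATF4, had a log2 change of 0.030, and -0.24 without siC replicate 3. Its constitutive counterpart PPP1R15B had -0.073.

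None of the 8 subunits of eIF2 and eIF2B passed with all libraries in limma or in voom. At an unadjusted p under 0.05 in limma there were 2 of 8, near the 25.9% of all tested genes. The largest changes were -0.39 for EIF2S3 (limma adjusted p = 0.262) and -0.31 for EIF2B2 (adjusted p = 0.0527), a subunit of the exchange factor that phosphorylated eIF2 inhibits. EIF2S3 was at 50.6, 56.3 and 87.2 FPKM in siC and 43.4, 56.5, 45.2 and 48.0 FPKM in siIGF2BP1, so the groups overlapped. Its log2 change was -0.15 (limma adjusted p = 0.369) without siC replicate 3. EIF2B2 passed without siC replicate 3 (log2 change -0.38, limma adjusted p = 0.00678). Of its 19 alternatives 2 passed.

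Of the bZIP partners of ATF4, 8 of 10 were tested and JUN passed as higher, where 1.65% of all tested genes did. JUN, a subunit of AP-1, was at 13.9, 14.8 and 13.2 FPKM in siC and 23.2, 22.1, 21.8 and 22.1 FPKM in siIGF2BP1, with every siIGF2BP1 library above every siC library (log2 change 0.67, limma adjusted p = 0.00125). It passed in 18 of 19 alternatives. CEBPB had a log2 change of 0.36 (limma adjusted p = 0.0463), CEBPG -0.096 (adjusted p = 0.328) and ATF3, which ATF4 induces, 0.21 (adjusted p = 0.392).

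Among 17 tested of 20 other targets of ATF4 or DDIT3, 5 passed as higher and 1 as lower, against 1.65% and 2.28% of all tested genes. The list was chosen with earlier results of these data known, so its count is not independent evidence. NUPR1, at under 1 FPKM in each siC library, met the filter only through siIGF2BP1, where it was high, and among the other 16 genes 4 passed as higher and 1 as lower. The median log2 change was 0.14 over the 17 and 0.094 without NUPR1, and 0.078 over the 17 without siC replicate 3. TXNIP, which binds thioredoxin and limits glucose uptake, was at 5.67, 5.51 and 4.75 FPKM in siC and 23.2, 23.2, 23.6 and 23.9 FPKM in siIGF2BP1 (log2 change 2.13, limma adjusted p = 9.19e-05). TXNIP is also controlled by glucose-sensing factors that are not part of the stress response. Each of its siIGF2BP1 libraries was above each siC library, with little spread in either group.

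NUPR1, a stress-induced chromatin protein, was at 0.977, 0.941 and 0.461 FPKM in siC and 3.88, 2.76, 3.02 and 3.50 FPKM in siIGF2BP1 (log2 change 1.97, limma adjusted p = 0.00505). INHBE, a liver-expressed activin subunit, was at 4.97, 5.70 and 3.76 FPKM in siC and 12.7, 12.7, 15.0 and 14.1 FPKM in siIGF2BP1 (log2 change 1.5, limma adjusted p = 0.00154). GDF15, a secreted stress hormone, was at 26.7, 24.3 and 19.0 FPKM in siC and 45.7, 40.0, 42.9 and 39.3 FPKM in siIGF2BP1 (log2 change 0.86, limma adjusted p = 0.0069). In all 3 genes the groups did not overlap and siC replicate 3 was the lowest library, and without it the log2 changes were 1.67, 1.34 and 0.71, all past the threshold. TXNIP passed in 18 of 19 alternatives, INHBE in 17 of 19, GDF15 in 10 of 19 and NUPR1 in 10 of 18.

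The other 2 that passed, HERPUD1 and ERO1A, are outside the rule for genes named and were chosen after their values were seen. HERPUD1, a factor of ER-associated degradation, was at 8.45 to 8.87 FPKM in siC and 11.8 to 12.8 FPKM in siIGF2BP1 (log2 change 0.50, limma adjusted p = 0.00293). ERO1A, an oxidase of the ER, was lower, at 11 to 14.1 FPKM in siC and 6.64 to 7.81 FPKM in siIGF2BP1 (log2 change -0.71, limma adjusted p = 0.00758). They passed in 12 and 9 of 19 alternatives.

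Of the lists of amino acid supply, 1 gene each passed, SLC7A5 and PSPH, both lower, where 2.28% of all tested genes passed as lower. Means were lower for 6 of 12 transporters and for 10 of 16 tested genes of serine, one-carbon and amino acid synthesis. Of all 14839 tested genes 7848 were lower in mean. Of 12 amino acid transporters SLC7A5, the large neutral amino acid carrier that imports leucine, fell from 29.8, 27.9 and 34.5 FPKM in siC to 19.2, 17.6, 18.4 and 17.7 FPKM in siIGF2BP1 (log2 change -0.74, limma adjusted p = 0.00288). The groups did not overlap. Of 16 tested genes of serine, one-carbon and amino acid synthesis PSPH, which completes the pathway of PHGDH and PSAT1, fell from 57.6, 56.4 and 58.5 FPKM to 44.1, 43.8, 43.1 and 46.0 FPKM (log2 change -0.38, limma adjusted p = 0.00624). PSPH was thus lower while PHGDH and PSAT1 had log2 changes of 0.24 and 0.043, not past the threshold, and the difference between these genes was not tested. SLC7A5 passed in 12 and PSPH in 8 of 19 alternatives. Without siC replicate 3, 3 genes of each of these lists passed, all lower, where 6.67% of all tested genes passed as lower.

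Of 20 cytosolic tRNA synthetases none passed with all libraries in limma or in voom, and the median log2 change was -0.031. At an unadjusted p under 0.05 in limma there were 4 of 20, where 25.9% of all tested genes passed. Without siC replicate 3 the median was -0.13, with 15 of 20 lower in mean against 11 of 20 with all libraries. Of all 14839 tested genes, 8085 were lower in mean without siC replicate 3 and 7848 with all libraries. DARS, the aspartate enzyme, had the largest change (0.40, limma adjusted p = 0.0228) and passed without siC replicate 3 (0.31, adjusted p = 0.00437). FARSA, a subunit of the phenylalanine enzyme, had -0.24 (adjusted p = 0.396).

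Over the 9 lists of pathway genes together, 120 of 129 were tested, and 6 passed as higher and 3 as lower (7.5%, against 3.93% of all tested genes), with a median log2 change of -0.0059. The 6 include NUPR1, which met the filter only through siIGF2BP1. The lists were chosen with earlier results of these data known, so this share is not independent evidence. In the fit without siC replicate 3, 10 passed as higher and 9 as lower (15.8% against 10.3%), with a median of -0.079.

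**Figure D4:**
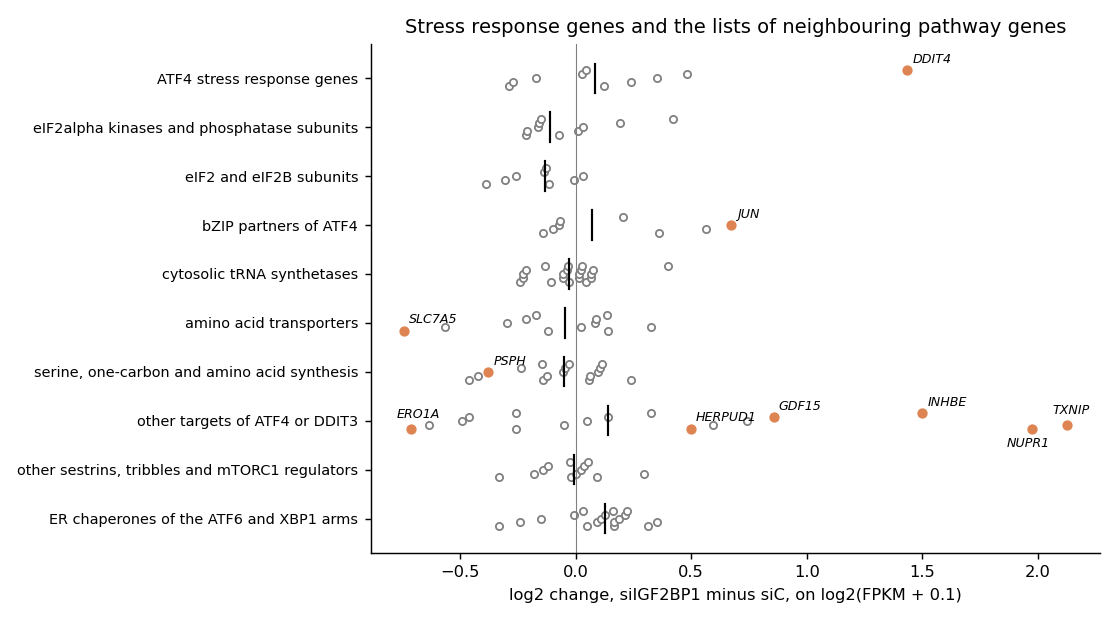
Log2 change (siIGF2BP1 minus siC, on log2(FPKM + 0.1)) of each tested gene, 1 row for the 10 stress response genes and 1 for each of the 9 pathway lists; black bars are medians and orange points have a limma adjusted p of at most 0.01. The orange points are DDIT4, JUN, SLC7A5, PSPH and 6 of the other targets of ATF4 or DDIT3, and the medians lie between -0.13 and 0.14.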

How the data were processed

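Total RNA of Huh-7 cells was depleted of ribosomal RNA and sequenced by the authors, who clipped reads with cutadapt 1.14, aligned them to GRCh38 with HISAT2 2.1.0, counted them per Ensembl gene with featureCounts 1.5.3 and tested genes with edgeR 3.18.1. Their fold changes, p-values and FDR were not used. The FPKM values deposited by the authors were the measure analysed. FPKM times gene length gave whole reads (within 0.02 read) for at least 99.96% of values above 0, from which the depth per library was taken. These reads also entered voom as an alternative. Per-sample columns without a label numbered 0. Groups and replicate numbers came from the sample titles.

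The 14839 genes whose level averaged 1 FPKM or more were tested with limma 3.58.1 (R 4.3.3) on log2(FPKM + 0.1), with a trend of variance on level, all 7 libraries, no covariates, two-sided, with Benjamini-Hochberg adjustment over all tested genes. The threshold was an adjusted p of 0.01. Log2 changes on this scale understate changes of low genes. Intervals are 95% and unadjusted. The fit was also run on simulated reads with the same dispersion (extra spread between libraries) for every gene. No simulated library stood apart as siC replicate 3 does, so that run does not bear on calls that depend on this library. Loci are from GENCODE on GRCh38, GC content from the longest transcript (98.7% of genes). Counting by strand is not stated in the sources used here.

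The 10 genes and the pathway lists were chosen with earlier results of these data known. Genes named are the 10, IGF2BP1, the eIF2alpha kinases, PPP1R15A, PPP1R15B, CEBPB, CEBPG and ATF3. Per list they are also the genes past the threshold (at most the 4 with the largest change) or, where none passed, the 2 with the largest change. Alternatives were other pseudocounts, filters and scalings, other limma settings, voom, array weights, removal of GC trends, a replicate block, another threshold and leaving out libraries.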

Additional observations from a re-analysis of the deposited data

Results flagged for a closer look

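In 37 results (the 10 stress response genes, IGF2BP1 and named pathway genes in the 4 siIGF2BP1 libraries), the gap of the highest or lowest library to its neighbour was compared with the range of the group. It passed Dixon's 95% critical value for 4 samples in 3, where chance gives about 1.85. For DDIT3 the gap was 0.936 of the range, with replicate 1 at 12 FPKM and the other 3 libraries at 10.8 to 10.9 FPKM. For EIF2AK3 it was 0.877, with replicate 2 at 9.43 FPKM and the others at 7.29 to 7.55 FPKM. For ATF3 it was 0.868, with replicate 2 at 1.74 FPKM and the others at 2.08 to 2.13 FPKM. None of the 3 genes passed the threshold between siC and siIGF2BP1 with all libraries. The siC group of 3 libraries, which holds replicate 3, was not examined in this way.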

How the results depend on the processing

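Of 188 values of the 10 genes under 19 alternatives per gene, 170 kept direction and side of the threshold, 10 reversed, 4 passed newly and 4 no longer passed. DDIT3, TRIB3, CHAC1 and ASNS kept direction and call in all of theirs. Fits without 1 library each gave 0 (without siIGF2BP1 replicate 1, 3 or 4) to 2 (without siC replicate 3) of the 10 past the threshold, 2 to 19 pathway list genes and 129 (without siC replicate 2) to 1523 (without siC replicate 3) of all tested genes. Their log2 changes ran from -0.1411 to 0.1104 for ATF4, -0.7364 to -0.04473 for ATF5, 1.256 to 1.544 for DDIT4, -0.01822 to 0.08501 for PSAT1, -0.09676 to 0.4143 for PHGDH, -0.2781 to 0.02015 for EIF2AK2 and -0.2397 to 0.1935 for PPP1R15A. The negative values of ATF4, PSAT1 and PHGDH without siC replicate 3 come from that library being lower, while ATF4 also turned without siIGF2BP1 replicate 4.

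Array weights, which gave siC replicate 3 a weight of 0.0986, called 3 of the 10 genes, 32 list genes and 2744 genes in all. With them ATF5 (-0.7083) and SESN2 (-0.4261) passed as lower, and ATF4 (-0.1078), PSAT1 (-0.006508), PHGDH (-0.0716) and PPP1R15A (-0.2198) reversed. Leaving out both siC replicate 3 and siIGF2BP1 replicate 2, chosen after seeing the data, called 2, 19 and 1605. SESN2 passed (-0.4189), and ATF4 (-0.07585), PHGDH (-0.08232) and PPP1R15A (-0.1842) reversed. No filter called 5 list genes and 352 genes in all, GC trends removed 907 in all, and a threshold of 0.05 called 17 and 1713. On recovered reads (voom) PPP1R15A was at -0.007095. The cause of these changes was not tested.

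The fit with a replicate block called 0 of the 10, 0 list genes and 0 in all at the threshold of limma (1, 18 and 2389 at an unadjusted p under 0.05), with log2 changes of 1.388 for DDIT4 and -0.01397 for ATF4. It gives siIGF2BP1 replicate 4, which has no siC partner, a level of its own and so drops it. Same-numbered libraries correlated at -0.0263, -0.118 and -0.111 in their deviations, none best with its own number. The deviations in siC depend on siC replicate 3, which stands apart, so these correlations cannot decide whether the numbers pair the libraries.

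Both the number of libraries and depth limit these results. CHAC1 and DDIT3 had as few as 92 reads in a library. The siC group has 3, of which 1 stands apart, and a difference such as that of ATF4 has a log2 interval of -0.32 to 0.37. Only RNA was measured, not ATF4 translation or eIF2alpha phosphorylation.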

Other observations

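The ER chaperones and sensors of the ATF6 and XBP1 arms, the other arms of the unfolded protein response, had a median log2 change of 0.13 over 17 genes. Of the 17, 13 were higher in mean, as were 6991 of all 14839 tested genes. None passed the threshold in limma, and 5 had an unadjusted p under 0.05 in limma, where 25.9% of all tested genes did. Voom called 1 higher, and 2.38% of all tested genes. CANX, the membrane-bound lectin chaperone calnexin, was at 181, 184 and 175 FPKM in siC and 230, 225, 231 and 233 FPKM in siIGF2BP1, with no overlap (log2 change 0.35, limma adjusted p = 0.0115, passing in 6 of 19 alternatives). SDF2L1, a cofactor of ER chaperones, was at 55.3, 47.2 and 32.4 FPKM in siC and 36.0, 34.1, 32.8 and 36.7 FPKM in siIGF2BP1 (log2 change -0.33, limma adjusted p = 0.28). In the fit that left out siC replicate 3 the median was -0.032, with 7 of the 17 higher and 10 lower in mean. Of all 14839 tested genes 6754 were then higher in mean. In that fit 2 of the 17 passed as higher and 1, SDF2L1, as lower (-0.55, limma adjusted p = 0.00513). Of all tested genes, 3.59% passed as higher and 6.67% as lower in that fit.

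Of 12 tested genes among the other sestrins, tribbles and mTORC1 regulators, none passed in limma or voom. In limma 1 of them had an unadjusted p under 0.05, where 25.9% of all tested genes did. The median log2 change was -0.0093, and -0.11 without siC replicate 3. SESN3, a sestrin that restrains mTORC1, was at 8.26, 8.52 and 13.4 FPKM in siC and 7.22 to 8.41 FPKM in siIGF2BP1 (log2 change -0.33, limma adjusted p = 0.281). Its log2 change was -0.11 (limma adjusted p = 0.331) without siC replicate 3. TRIB1, a pseudokinase that directs C/EBP factors to degradation, was at 6.62, 6.68 and 8.43 FPKM in siC and 7.99 to 9.74 FPKM in siIGF2BP1 (log2 change 0.30, limma adjusted p = 0.157). That of TRIB1 was 0.41 (limma adjusted p = 0.022) without siC replicate 3. The 9 list genes that were not tested, FOS, BATF3, ALDH1L2, FGF21, VLDLR, SLFN5, TRIB2, DDIT4L and CASTOR1, were at 1.27 FPKM or less in every library.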
